A study of Mus musculus with 24 samples.

Results

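Axin2, Rnf43, Znrf3, Nkd1, Notum, Lgr5, Tbx3, Sp5, Lect2 and Cldn2, 10 genes known as targets of Wnt/β-catenin signaling in hepatocytes, were followed through whole liver, sorted endothelial cells (ECs) and sorted liver macrophages. They were taken by symbol from 4 count tables of 48820 entries each, and each of the 10 had exactly 1 entry in every table. The study had 24 RNA-seq libraries of C57BL/6 mice in 8 groups of 3, described in its methods as independent biological replicates. Gdf2 (the gene of BMP9) and Bmp10 were deleted with Lrat-Cre, which is active in hepatic stellate cells (HSCs), in mice labelled Bmp9/10-HSC-KO and called HSC-KO here. Livers of HSC-KO and control mice came from 12-week-old animals. CD45-CD31+ ECs and CD45+Ly6C-F4/80+CD64+ macrophages of HSC-KO and control mice came from animals of 8 to 10 weeks, as did the macrophages of the groups described next. A second pair of macrophage groups was labelled Smad4FF and Smad4FF cKO, the latter being Smad4 fl/fl mice with Vav1-Cre, which deletes in the whole hematopoietic lineage and not in macrophages alone. The labels give the comparison mice of the HSC-KO experiment as control, and as WT in the sample descriptions, without saying which floxed alleles or Cre they carried. By the animal numbers in those descriptions, 3 of the 6 EC libraries (1 control and 2 HSC-KO) and 3 of the 6 macrophage libraries of that experiment came from the same mice, so these cell types are not independent sets of animals.

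Wnt ligands bind Frizzled receptors and LRP coreceptors, which stabilizes β-catenin and lets it act with TCF/LEF factors on target genes. In the liver lobule this signal comes mainly from ECs of the central vein, so that hepatocytes around that vein, the pericentral hepatocytes, carry the highest target gene expression. R-spondins strengthen the signal through LGR receptors by removing RNF43 and ZNRF3, a pair of membrane ubiquitin ligases that clear Frizzled from the cell surface. Several targets encode such brakes themselves, among them the scaffold AXIN2, the ligases RNF43 and ZNRF3, the Dishevelled-binding NKD1 and the secreted Wnt deacylase NOTUM.

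All 10 are protein-coding in GENCODE vM21 for GRCm38, the build named in the submitters' processing notes. The feedback inhibitors are Axin2 at chr11:108920349-108950783 on the plus strand, Rnf43 at chr11:87662722-87735539 (plus), Znrf3 at chr11:5276324-5444847 (minus), Nkd1 at chr8:88521354-88594884 (plus) and Notum at chr11:120653788-120661175 (minus). Lgr5, the R-spondin receptor, is at chr10:115450311-115587780 (minus). The transcription factor genes are Tbx3 at chr5:119670669-119684724 (plus) and Sp5 at chr2:70474923-70477729 (plus). Lect2, which encodes a secreted hepatocyte protein, is at chr13:56542464-56548502 (minus), and Cldn2, which encodes a tight junction protein, at chrX:139800828-139811386 (plus). Exons of Notum overlap the antisense genes Notumos over 29.4% and Myadml2os over 8.72% of their length, while Axin2 overlaps Gm11670 over 3.8% and Tbx3 overlaps Tbx3os1 over 1.74%. Whether the counting used strand is not given in the sources used here, so reads of these overlaps cannot be told apart.

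Promoter sequence was available in the RefSeq table (GRCm38.p6) for 6 of the 10 genes, namely Axin2, Rnf43, Sp5, Nkd1, Lect2 and Cldn2. The core motif of TCF/LEF factors, CTTTGAT, was searched on both strands in the 250 bases before each start site. It was found in Sp5 and Lect2, and 3.21% of 32851 such windows in the table held it. The Sp5 window (chr2:70474673-70474922, plus strand) and the Lect2 window (chr13:56548539-56548788, minus strand) are shown because they hold the motif, and the Axin2 window (chr11:108920099-108920348, plus strand) because this gene is the most used readout of the pathway and its window held no match. All are printed in the direction of the gene, and capitals mark CTTTGAT, its related form CTTTGTT, or the reverse complement of either.
Sp5: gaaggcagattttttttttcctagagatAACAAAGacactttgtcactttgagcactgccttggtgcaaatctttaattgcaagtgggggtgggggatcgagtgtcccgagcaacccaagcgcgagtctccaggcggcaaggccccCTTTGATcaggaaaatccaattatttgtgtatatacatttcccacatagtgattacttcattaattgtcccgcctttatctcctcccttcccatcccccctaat
Lect2: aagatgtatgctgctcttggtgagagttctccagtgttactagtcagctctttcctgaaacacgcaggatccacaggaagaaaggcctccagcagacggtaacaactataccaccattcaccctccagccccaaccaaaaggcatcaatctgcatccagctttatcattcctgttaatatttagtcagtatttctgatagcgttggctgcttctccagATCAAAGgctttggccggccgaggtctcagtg
Axin2: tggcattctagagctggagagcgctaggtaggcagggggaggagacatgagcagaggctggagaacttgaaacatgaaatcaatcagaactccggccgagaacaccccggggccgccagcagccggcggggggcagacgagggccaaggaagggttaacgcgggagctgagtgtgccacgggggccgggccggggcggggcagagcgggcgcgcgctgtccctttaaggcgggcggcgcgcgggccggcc
In Sp5 the core motif lay at bases -104 to -98 from the start site and CTTTGTT on the opposite strand at -222 to -216. In Lect2 the core motif lay on the opposite strand at -32 to -26. A match is a description of letters, and these libraries hold no measurement of factor binding.

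Total counts per library, rounded, were 60911500 to 110879000, and 73942000 to 104087000 in the livers. The deleted genes were lower in HSC-KO livers, Gdf2 at 16.8 ± 6.71 CPM (counts divided by the TMM-scaled library size; mean ± SD, n = 3) in controls against 2.87 ± 0.887 in HSC-KO, and Bmp10 at 2.67 ± 0.644 against 0.156 ± 0.0923. Smad4 fell to 38.2% of its control level in Smad4FF cKO macrophages. Summed over 10 hepatocyte markers, livers stood at 121340 to 146139 CPM in controls and 153940 to 204294 in HSC-KO. Summed macrophage markers fell from between 380 and 638 CPM to between 88.2 and 135 CPM in HSC-KO livers, with 9 of 12 called lower. The same markers were also lower in sorted macrophages, at 41540 to 42659 CPM in controls and 19994 to 21637 CPM in HSC-KO, so that against the sorted cells of the same genotype livers held 0.901 to 1.51% and 0.425 to 0.651% of their level. Summed endothelial markers were 532 to 658 CPM in control livers against 457 to 528 CPM in HSC-KO livers. In sorted ECs these markers were 19975 to 20866 CPM in controls and 13703 to 15713 CPM in HSC-KO. Against ECs of the same genotype, control livers thus held 2.59 to 3.20% and HSC-KO livers 3.09 to 3.57% of their level. Stellate markers were higher in sum, at 301 to 408 CPM in control and 561 to 606 CPM in HSC-KO livers, while cholangiocyte markers (71.8 to 99.7 against 46.1 to 52.9 CPM) and lymphoid markers (4.77 to 7.68 against 1.23 to 2.65 CPM) were lower, and the part of these cells in the results below was not tested. In bulk samples, fewer cells of a type and less RNA per cell cannot be told apart. HSC-KO liver replicate 3 had 12 counts of Xist where the other 5 livers had 31392 to 54369, a level seen in males, so 1 HSC-KO liver differed from the others in sex. At least 1000 counts of Xist were present in 1 of 3 control and 2 of 3 HSC-KO libraries of ECs and likewise of macrophages, so sex was mixed and not balanced there (some of these libraries share a mouse), and in none of the Smad4 libraries.

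The comparison of HSC-KO with control livers asked how the Wnt targets stand when HSCs lack both ligands. Every gene had a lower mean in HSC-KO livers, and 8 of 10 were called lower (edgeR's quasi-likelihood test over 17118 genes, Benjamini-Hochberg adjusted p below 0.05 and more than 1 log2 unit of change). Of all genes tested, 1.45% were called lower and 2.48% in either direction. For 9 of 10 genes each HSC-KO liver lay below each control liver, which held for 10.9% of all genes. The genes were chosen with results of these livers known, so this count is not independent evidence of a direction. Their median log2 fold change was -2.07, beside -0.01 over all genes tested. The largest falls were those of Sp5, Lgr5, Tbx3, Axin2 and Lect2, followed by Notum, Rnf43 and Cldn2, while Nkd1 and Znrf3 were not called.

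**Figure D1:**
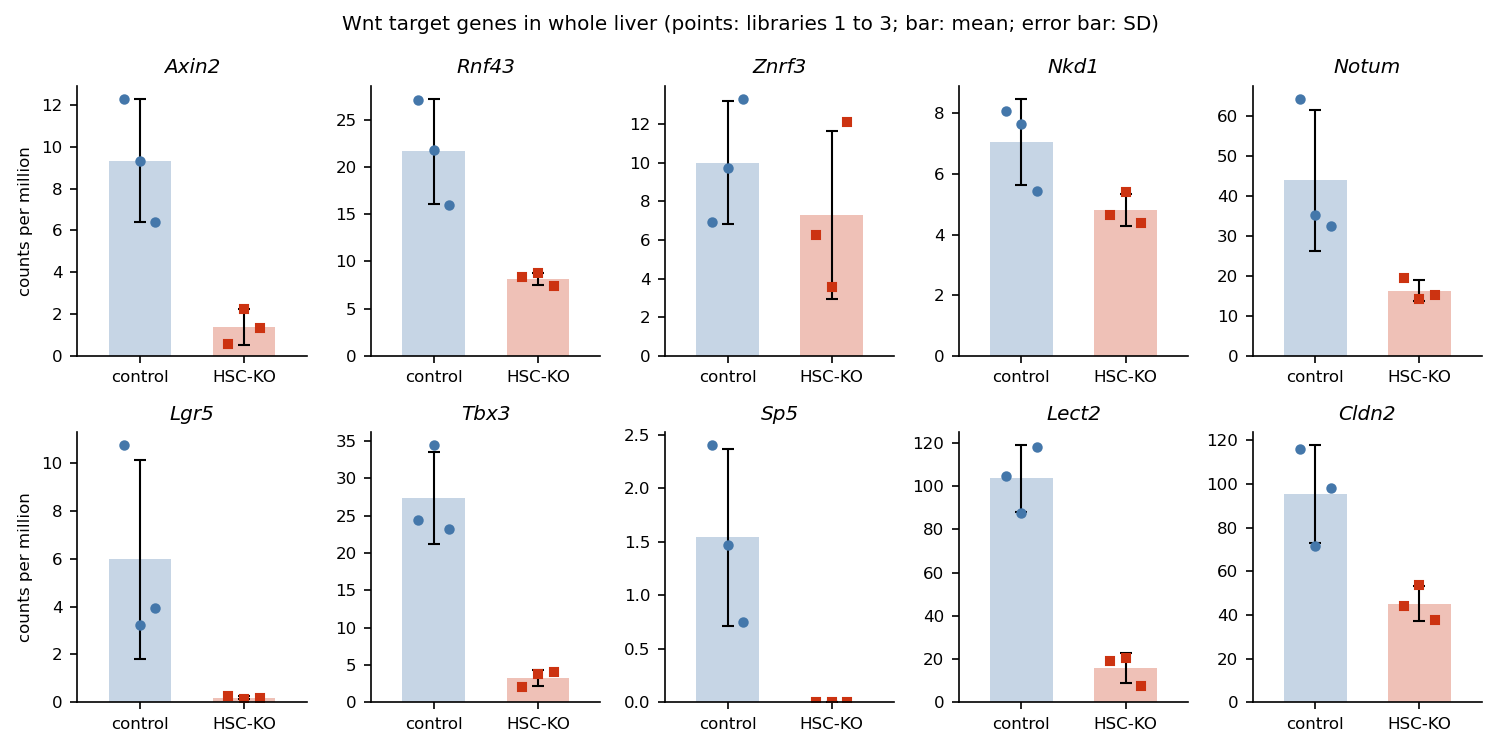
CPM of each gene (y axis, each panel with its own scale from 0) in control and HSC-KO livers; points are libraries, bars are means and error bars SD (n = 3). For 9 genes the HSC-KO points lie below all control points, for Nkd1 by a narrow margin, and for Znrf3 the groups overlap.

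Axin2 stood at 12.3, 9.33 and 6.41 CPM in control livers 1 to 3 and at 0.563, 2.26 and 1.35 CPM in HSC-KO livers 1 to 3. The highest HSC-KO liver was thus well below the lowest control, and the log2 fold change was -2.74 (SE 0.49, adjusted p = 0.0318 by edgeR). The call was lost on leaving out any liver other than HSC-KO replicate 2 (adjusted p 0.0565 to 0.107, log2 fold change -2.94 to -2.37), so the direction was stable but the threshold was passed narrowly by edgeR. By DESeq2 the adjusted p of Axin2 was 2.12e-08.

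Rnf43 measured 27.1, 21.8 and 16.0 CPM in controls and 8.31, 8.74 and 7.44 CPM in HSC-KO livers. The HSC-KO livers were close to each other and all below the controls, with a log2 fold change of -1.41 (SE 0.20, adjusted p = 0.0135 by edgeR). Without control replicate 2 the adjusted p was 0.0616 and without HSC-KO replicate 1 it was 0.0698. Znrf3, the partner ligase, measured 6.95, 9.72 and 13.3 CPM in controls and 6.24, 3.56 and 12.1 CPM in HSC-KO livers. Its groups overlapped, since HSC-KO replicate 3 exceeded 2 of the controls, and the log2 fold change of -0.45 (SE 0.44) had an adjusted p of 0.769 by edgeR. That liver is the one with Xist at a level seen in males. Without it the log2 fold change of Znrf3 was -1.03 and was still not called.

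Notum measured 64.3, 35.1 and 32.4 CPM in control livers and 19.4, 14.3 and 15.3 CPM in HSC-KO livers. Control replicate 1 was far above the other controls, yet all HSC-KO livers lay below the lowest control, and the log2 fold change was -1.43 (SE 0.28, adjusted p = 0.0408 by edgeR). That call held only without control replicate 1 and was lost on leaving out any other liver (adjusted p 0.0637 to 0.137, log2 fold change -1.59 to -1.34). By DESeq2 the adjusted p of Notum was 9.77e-06. Nkd1 measured 8.09, 7.64 and 5.43 CPM in controls and 4.65, 5.42 and 4.39 CPM in HSC-KO livers. The highest HSC-KO liver lay just below the lowest control, and the log2 fold change of -0.55 (SE 0.21) was not called (adjusted p = 0.313 by edgeR).

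Lgr5 had 1184, 247 and 357 reads in control livers 1 to 3, or 10.7, 3.22 and 3.96 CPM, and 20, 11 and 13 reads in HSC-KO livers, or 0.268, 0.131 and 0.181 CPM. All HSC-KO livers were more than an order of magnitude below the lowest control, and 3.24% of the control mean was left. The log2 fold change was -4.95 (SE 0.59, adjusted p = 0.00645 by edgeR), and it was called without any of the 6 livers. Control replicate 1 alone was 3.33 times the lowest control.

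Tbx3, a T-box repressor, measured 24.4, 34.4 and 23.2 CPM in controls and 2.09, 3.80 and 4.03 CPM in HSC-KO livers. The control livers varied little, none of the HSC-KO livers came near them, and the log2 fold change of -3.05 (SE 0.29, adjusted p = 0.00241 by edgeR) was called without any of the 6 livers. Sp5, a zinc finger factor of the SP family, had 265, 113 and 68 reads in controls, or 2.40, 1.47 and 0.754 CPM, and no read in any HSC-KO liver. Against a floor of 3 counts per library this is at least 36.9-fold lower, and the adjusted p was 0.0132 by edgeR. The adjusted p rose to 0.0522 without control replicate 1 and to 0.0616 without control replicate 2.

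Lect2 had the highest level per kb of exon among these genes and measured 105, 87.6 and 118 CPM in controls and 19.1, 20.5 and 7.76 CPM in HSC-KO livers. All HSC-KO livers were below all controls, HSC-KO replicate 3 (the liver low in Xist) by the widest margin, and 15.2% of the control mean was left. Its log2 fold change of -2.71 (SE 0.35, adjusted p = 0.00933 by edgeR) was called without any of the 6 livers. Cldn2 measured 116, 71.6 and 98.3 CPM in controls and 44.2, 54.0 and 37.8 CPM in HSC-KO livers. It kept 47.5% of its control mean, and its log2 fold change of -1.07 (SE 0.21, adjusted p = 0.0411 by edgeR) was just past the fold threshold. That call held only without control replicate 2 and was lost on leaving out any other liver (adjusted p 0.0595 to 0.163, log2 fold change -1.22 to -0.90). By DESeq2 the adjusted p of Cldn2 was 6.58e-05.

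The genes did not vary alike within the control group. Of the 10, 7 were highest in control replicate 1, where Lgr5, Sp5, Notum and Axin2 were 1.92 to 3.33 times the lowest control, while Tbx3 was highest in control replicate 2, and Lect2 and Znrf3 in control replicate 3. Among HSC-KO livers, 5 genes were highest in replicate 2. With log2 CPM of Xist as a covariate 5 of the 10 were called, the calls of Axin2, Notum and Cldn2 being lost (adjusted p 0.0620, 0.0743 and 0.0752). With the libraries scaled by their summed hepatocyte markers, which lowered the median gene by 0.40 log2 units, the same 8 genes were called, and the log2 fold changes of those with reads in HSC-KO livers lay between -5.37 for Lgr5 and -1.46 for Cldn2.

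Levels in the other cells were set beside those of liver to see which cell type could carry each gene. For this all 24 libraries were put on 1 TMM scale and divided by exon length (FPKM). Livers and sorted cells also differed in mouse age, RNA isolation and sorting, which cannot be told apart from cell type in these comparisons. TMM assumes that most genes are alike, but 59.9% (control ECs) and 60.5% (control macrophages) were called different from control livers. The sizes of these differences are thus approximate. In control livers Lect2 was highest at 135 ± 20.8 FPKM (n = 3), above Cldn2 at 34.4 ± 8.71, whose range overlapped that of Notum at 21.9 ± 9.28. Tbx3 at 4.93 ± 1.04 and Rnf43 at 3.96 ± 1.08 followed and overlapped, and below them came Axin2 at 2.04 ± 0.674, Nkd1 at 1.85 ± 0.390, Znrf3 at 1.51 ± 0.468, Sp5 at 0.883 ± 0.488 and Lgr5 at 0.702 ± 0.501 FPKM, each overlapping its neighbor.

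**Figure D2:**
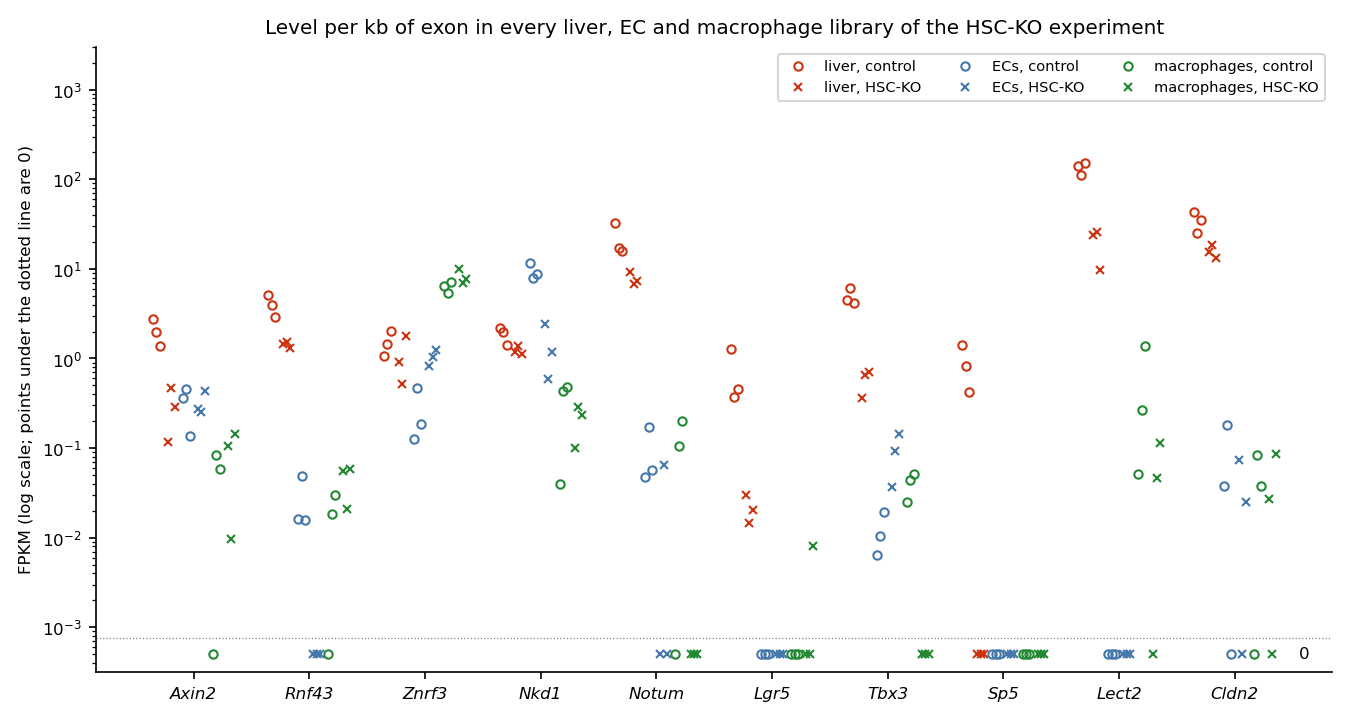
FPKM of each gene (log y axis; points under the dotted line are 0) in the liver, EC and macrophage libraries of the HSC-KO experiment; circles are control and crosses HSC-KO libraries. Among controls, liver has the highest mean for 8 genes, ECs for Nkd1 and macrophages for Znrf3; among HSC-KO samples Axin2 is 0.292 FPKM in livers and 0.321 in ECs.

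In control ECs 9 genes were called lower than in control livers and Nkd1 was called higher (edgeR; 33.4% of 17387 genes were lower in ECs and 59.9% differed in either direction). Sp5, Lgr5 and Lect2 had no read in any EC library of either genotype. Against the floor of 3 counts per library, control ECs were at least 45.4-fold lower than control livers for Sp5, at least 176-fold for Lgr5 and at least 3053-fold for Lect2. Cldn2, Tbx3, Notum and Rnf43 differed from liver by -8.98, -8.70, -7.96 and -7.27 log2 units (edgeR). Among the 9 lower genes, Axin2 (-2.71, SE 0.47, adjusted p = 0.00110) and Znrf3 (-2.58, adjusted p = 0.00239) were the nearest to liver. The Wnt inhibitor Nkd1 went the other way, at 9.43 ± 1.90 FPKM in control ECs against 1.85 ± 0.390 in control livers, a log2 difference of 2.32 (adjusted p = 3.57e-05 by edgeR).

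In control macrophages 9 genes were again called lower than in control livers and 1 higher (edgeR; 33.5% of 17361 genes were lower in macrophages and 60.5% differed in either direction). The exception was Znrf3, at 6.31 ± 0.822 FPKM in control macrophages against 1.51 ± 0.468 in control livers, a log2 difference of 2.01 (adjusted p = 0.000284 by edgeR). Nkd1 was lower, by a log2 difference of -2.58 (adjusted p = 0.0208 by edgeR). That call was lost without control liver replicate 1 (adjusted p = 0.0571) or 2 (0.0533). Lgr5 and Sp5 had no read in any control macrophage library, and the log2 differences of the other genes lay between -9.75 and -5.46. For 8 of the genes control ECs and macrophages thus carried less than bulk liver, while Nkd1 was higher in ECs and Znrf3 in macrophages. No sorted hepatocytes, stellate cells or cholangiocytes were measured here, so the levels do not show which of these cells carried the rest.

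How much of a liver's level the RNA of another cell type could supply was estimated by a calculation added after the data were seen. Summed endothelial markers in control livers were 2.59 to 3.20% of their level in control ECs, and in HSC-KO livers 3.09 to 3.57% of that in HSC-KO ECs, with 1.01 to 11.0% over single markers. Multiplied by the level of Nkd1 in ECs, this share came to 1.30, 1.55 and 1.61 CPM in control livers, or 16.1 to 29.7% of the Nkd1 measured there. In HSC-KO livers it came to 0.224 to 0.259 CPM, or 4.79 to 5.15%. With that part taken off, 6.78, 6.08 and 3.82 CPM of Nkd1 were left in controls and 4.43, 5.16 and 4.16 CPM in HSC-KO livers. The groups then overlapped. Before, the lowest control stood at 5.43 and the highest HSC-KO liver at 5.42 CPM. With more taken off controls, overlap was bound to follow and carries no weight. The ratio of the means of what was left was -0.28 on the log2 scale. It ranged from -0.44 with the lowest marker to 0.26, the opposite direction, with the highest. For Axin2 the same calculation gave 0.429 to 1.02% of the level in control livers and 3.21 to 11.2% in HSC-KO livers, or at most 2.43 and 26.8% with the highest single marker. For Rnf43, Notum, Tbx3, Cldn2, Lgr5, Sp5 and Lect2 it gave at most 0.0411% in control livers and, where HSC-KO livers had reads, at most 1.03% there. For Znrf3 endothelial markers gave 0.580 to 0.897% in control and 2.43 to 9.45% in HSC-KO livers. Macrophage markers gave 4.37 to 7.62% of Znrf3 in control and 2.33 to 12.2% in HSC-KO livers. Over single macrophage markers that share ran from 1.82 to 56.0% and from 0 to 90.6%, so the macrophage part of Znrf3 in livers could not be fixed.

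**Figure D3:**
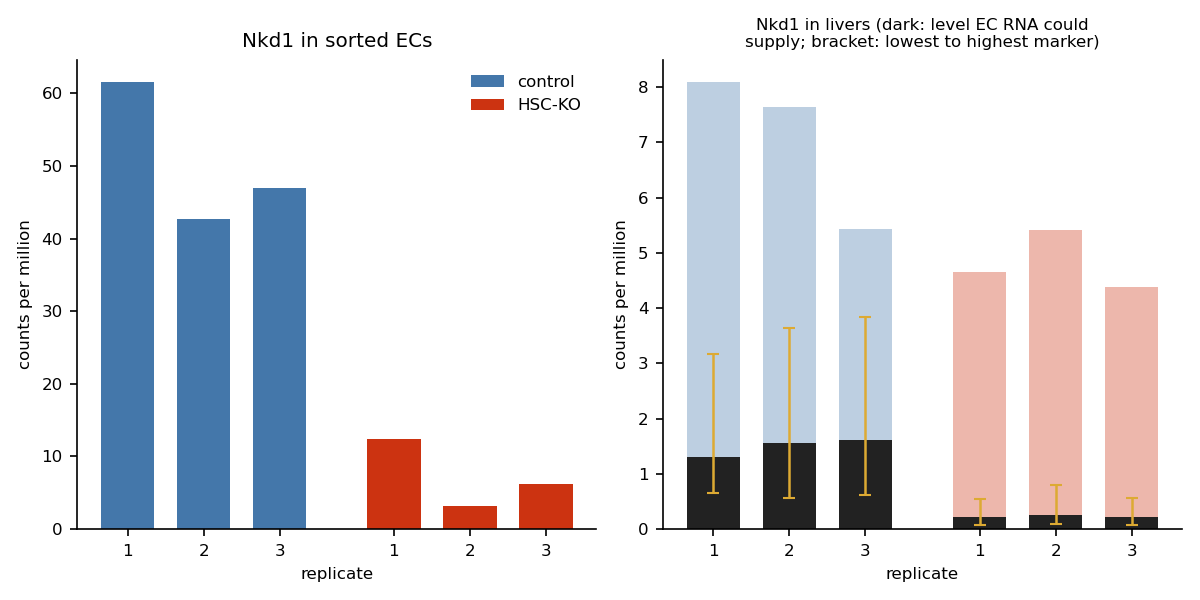
Nkd1 CPM (y axes from 0) by library, in sorted ECs on the left and in livers on the right; the dark part of a liver bar is the level that EC RNA could supply by the summed endothelial markers, and its bracket runs from the lowest to the highest marker. Nkd1 in ECs drops from at least 42.7 CPM in controls to at most 12.4 CPM in HSC-KO.

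In ECs, the comparison of HSC-KO with control cells showed which of these genes moved outside hepatocytes. Of the 10, 6 passed the filter on low counts, and 3 were called, Nkd1 lower and Znrf3 and Tbx3 higher (edgeR; 13.7% of 16053 genes were called in either direction). Summed macrophage markers were lower in the same cells, at 275 to 370 CPM in control and 64.8 to 108 CPM in HSC-KO ECs, with 8 of 11 tested called lower, and their part in the EC results was not tested. Nkd1 measured 61.5, 42.7 and 46.9 CPM in control ECs and 12.4, 3.14 and 6.19 CPM in HSC-KO ECs. The groups were far apart, with a log2 fold change of -2.79 (SE 0.47, adjusted p = 0.00577 by edgeR), and the call held without any of the 6 libraries.

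Znrf3 measured 1.17, 4.32 and 1.74 CPM in control ECs and 7.46, 9.44 and 11.3 CPM in HSC-KO ECs. All HSC-KO ECs were above all controls, and the log2 fold change was 1.97 (SE 0.48, adjusted p = 0.0244 by edgeR). The call was lost without control replicate 1 or 3 or without HSC-KO replicate 2 or 3 (adjusted p 0.0569 to 0.0832, log2 fold change 1.63 to 1.97). Tbx3 was at trace level, with 4, 5 and 11 reads in control ECs and 26, 51 and 90 in HSC-KO ECs. Its log2 fold change of 2.88 (SE 0.77, adjusted p = 0.0358 by edgeR) was called only in full or without HSC-KO replicate 1 (adjusted p 0.0582 to 0.140 and log2 fold change 2.39 to 3.40 without any other), and was not called with Xist as a covariate (3.12, adjusted p = 0.0551). Axin2 stood at 2.29, 2.93 and 0.896 CPM in control ECs and 1.72, 1.62 and 2.76 CPM in HSC-KO ECs, overlapping groups with a log2 fold change of -0.00 (SE 0.47, adjusted p = 0.998 by edgeR). Rnf43 had 10, 23 and 9 reads in control ECs and no read in HSC-KO ECs, which is at least 4.91-fold lower and did not pass the filter of edgeR. DESeq2, which tested it, called it (adjusted p = 0.00612), and called 14.4% of all genes.

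The difference between the liver and EC responses was tested as an interaction over 12 libraries (6.48% of 18991 genes were called). Livers came from older mice than ECs, and RNA isolation and sorting differed too. Their part cannot be told apart from that of cell source. Tbx3 fell in livers and rose in ECs, a difference of -5.96 log2 units (SE 0.71, adjusted p = 0.000479 by edgeR), which was called without any of the 12 libraries. For Axin2, which fell in livers, the difference was -2.78 (adjusted p = 0.0450 by edgeR), and for Nkd1, which fell in ECs, it was 2.20 (adjusted p = 0.0317 by edgeR). The Axin2 difference kept its call only without HSC-KO liver 2, control EC 2 or HSC-KO EC 1 (adjusted p 0.0577 to 0.108 without any other, difference -2.99 to -2.41). The Nkd1 difference kept it only without control EC 2 or 3 or HSC-KO EC 1 or 2 (0.0501 to 0.0813 without any other, difference 2.05 to 2.32). Rnf43 also passed (5.34, adjusted p = 0.0238 by edgeR), a value that rests on HSC-KO ECs without a read and that lost its call without HSC-KO EC 2 (adjusted p = 0.0503, 5.35) or 3 (0.0556, 5.33). For Znrf3 the difference was -2.46 (SE 0.73, adjusted p = 0.0654 by edgeR), and it was called without HSC-KO liver 3 (-3.04, adjusted p = 0.0298) or control EC 2 (-3.18, 0.0169). For Lgr5, Sp5 and Lect2, which had no read in ECs, the difference was not estimable (SE of 9038 log2 units or more, adjusted p = 1.00 by edgeR).

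**Figure D4:**
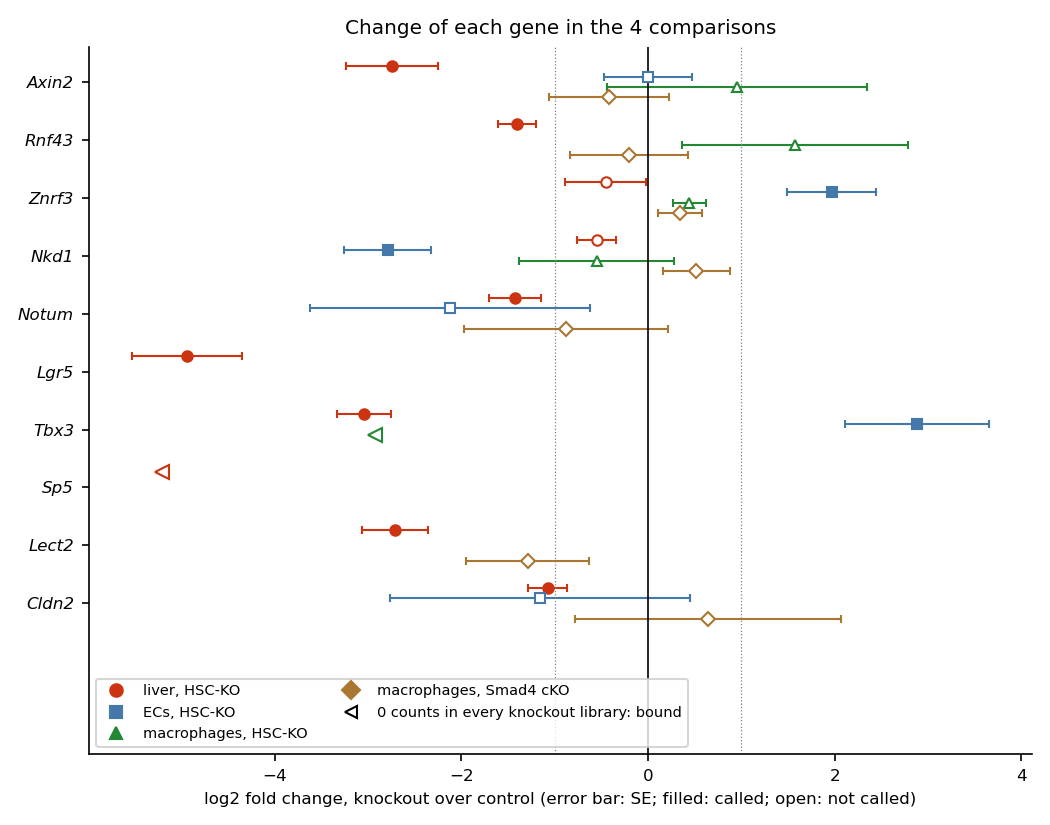
Log2 fold change of each gene (x axis, knockout over control) with its SE in livers, ECs and both macrophage comparisons; filled symbols were called and open ones were not, and a triangle is the bound for a called gene with 0 counts in every knockout library. Liver changes are all negative, and Tbx3 lies at -3.05 in livers and 2.88 in ECs.

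Macrophages of HSC-KO mice had 1 called gene among the 5 that passed the filter (edgeR; 11.7% of 16337 genes were called). Endothelial markers summed to 557 to 845 CPM in control and 77.2 to 166 CPM in HSC-KO macrophages, and lymphoid markers to 12.2 to 22.1 and 32.5 to 100.2 CPM. The called gene was Tbx3, with 14, 24 and 19 reads in controls and none in HSC-KO macrophages, at least 7.61-fold lower (adjusted p = 0.0174 by edgeR). Without control replicate 2 or 3 or HSC-KO replicate 1 it was not called (adjusted p 0.0527 to 0.0726). By the summed hepatocyte markers, liver RNA could supply 34.1, 56.8 and 62.0% of the Tbx3 in the 3 control libraries (5.61 to 198% over single markers), and 0.00712 to 0.0109 CPM in HSC-KO libraries, where liver Tbx3 was lower. The part of liver RNA in this Tbx3 difference was not tested. DESeq2 called Tbx3 and also Notum, which edgeR filtered out (adjusted p = 0.0258; 13% of all genes were called by DESeq2). Notum had 0, 21 and 27 reads in control macrophages and 0, 0 and 0 in HSC-KO macrophages. By the summed hepatocyte markers, liver RNA could supply 104% and 70.2% of the Notum in control replicates 2 and 3 (15.8 to 364% over single markers), and its part in the Notum difference was not tested. Znrf3, the gene that macrophages carried most, measured 50.1, 41.8 and 54.8 CPM in controls and 80.5, 54.5 and 64.4 CPM in HSC-KO macrophages, with a log2 fold change of 0.44 (SE 0.17, adjusted p = 0.120 by edgeR). The lowest HSC-KO value lay within the range of the controls.

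In Smad4FF cKO macrophages none of the 7 genes that passed the filter was called by edgeR or DESeq2, and 0 had an unadjusted p under 0.05 (of all genes, 5.43% were called by edgeR, 6.71% by DESeq2, and 21.4% had such a p). Znrf3 measured 17.5, 33.9 and 26.4 CPM in Smad4FF macrophages and 29.8, 35.9 and 32.6 CPM in Smad4FF cKO macrophages. Nkd1 measured 5.83, 2.07 and 4.38 CPM in Smad4FF and 5.55, 6.64 and 5.37 CPM in Smad4FF cKO macrophages. Endothelial markers in the same 6 libraries summed to between 944 and 2717 CPM, lowest in the Smad4FF library with the least Nkd1, and the level that control EC RNA could supply was 84.1 to 142% of the Nkd1 measured by the summed markers, and over single markers 26.7 to 688% in Smad4FF and 30.0 to 238% in Smad4FF cKO macrophages. The part of EC RNA in these Nkd1 values was not tested. Lect2 was at most 1.26 CPM in all 12 macrophage libraries, where hepatocyte markers summed to between 167 and 997 CPM.

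The remaining genes of the pathway were taken from lists by role, again chosen with results known. Upstream of hepatocytes, the ligand genes Wnt2 and Wnt9b fell in HSC-KO livers, Wnt2 from 5.27 ± 0.681 to 0.0556 ± 0.0537 CPM (log2 fold change -6.52, SE 0.67, adjusted p = 0.00338 by edgeR) and Wnt9b from 2.07 ± 0.750 to 0.0325 ± 0.0563 CPM (-5.99, SE 1.06, adjusted p = 0.0295). The Wnt9b call was lost on leaving out any liver except HSC-KO replicate 3 (adjusted p 0.0637 to 0.133, log2 fold change -6.17 to -5.38). Without that replicate the log2 fold change was -10.5, so its size was not stable. Wnt2 and Wnt9b were 2 of the 7 ligand genes tested (1.45% of all genes were called lower), and the list's median was -0.22, beside -0.01 over all genes tested. In ECs, where both are made, Wnt2 went from 521 ± 151 to 14.0 ± 2.59 CPM and Wnt9b from 25.6 ± 9.93 to 1.41 ± 0.557 CPM. Rspo3, the R-spondin gene of these cells, went from 95.7 ± 31.2 to 3.34 ± 0.934 CPM in ECs (log2 fold change -4.84, SE 0.35, adjusted p = 0.000157 by edgeR). In livers Rspo3 was 4.70 ± 0.614 against 2.93 ± 0.374 CPM and was not called (adjusted p = 0.195 by edgeR), but it was with hepatocyte marker scaling (log2 fold change -1.09, adjusted p = 0.0453).

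**Figure D5:**
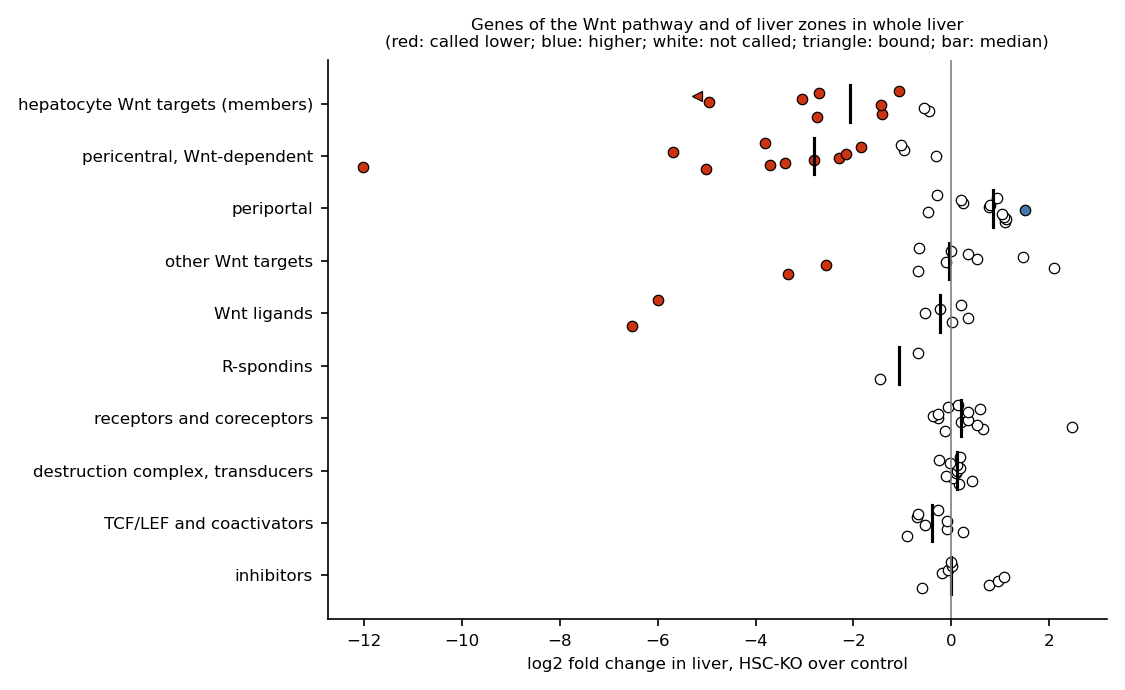
Log2 fold change in HSC-KO over control livers (x axis) of the tested genes of each list; red was called lower, blue called higher, white not called, the triangle is the bound of Sp5 and the bar the median of the list. Falls lie in the Wnt targets, the pericentral genes, 2 ligands and 2 other targets.

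Between ligand and target, no called change was seen in livers among 13 receptors and coreceptors, 11 genes of the destruction complex and transducers or 8 TCF/LEF factors and coactivators (edgeR). At an unadjusted p under 0.05 there were 2, 0 and 2 of them, and DESeq2 called 0 in each list, where 12.9% of all genes had such a p and DESeq2 called 4.02%. Their medians were 0.19, 0.11 and -0.39 log2 units. Of 8 other inhibitors tested 0 were called by edgeR, 1 by DESeq2 and 1 at an unadjusted p under 0.05. Among 10 further genes often used as Wnt targets, Tnfrsf19, a receptor of the TNF family, fell from 4.12 ± 1.42 to 0.409 ± 0.125 CPM (log2 fold change -3.33, SE 0.40, adjusted p = 0.00657 by edgeR). Cd44, an adhesion receptor, fell from 11.8 ± 2.94 to 1.99 ± 1.01 CPM (-2.56, SE 0.43, adjusted p = 0.0239), and the list's median was -0.05. Cd44 was much higher in control macrophages, at 941 ± 89.7 CPM, and fell there to 158 ± 10.9 CPM in HSC-KO mice, so its fall in livers moved with that of the macrophage markers and their part in it was not tested. Without control liver 2 or 3 or HSC-KO liver 1 the Cd44 call was lost (adjusted p 0.0922 to 0.0968).

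Downstream, 10 of 13 pericentral genes that need Wnt were called lower in HSC-KO livers (1.45% of all genes), with a median of -2.81 log2 units. The genes with the largest falls were Slc1a2, a glutamate transporter, from 151 ± 15.4 to 0.0357 ± 0.0619 CPM (adjusted p = 0.000348 by edgeR), and Slc13a3, a dicarboxylate transporter, from 31.7 ± 6.90 to 0.607 ± 0.243 CPM (adjusted p = 0.000348). Glul, which encodes glutamine synthetase, went from 718 ± 163 to 22.2 ± 3.44 CPM (log2 fold change -5.01, SE 0.24, adjusted p = 0.000226 by edgeR). Oat, ornithine aminotransferase, changed by -3.39 log2 units (adjusted p = 0.0157 by edgeR), and the cytochrome P450 genes Cyp2e1 and Cyp1a2 by -2.81 and -2.30 (adjusted p = 0.00567 and 0.0223). Slc1a2 was also present in control macrophages and went there from 66.7 ± 7.56 to 0.266 ± 0.0447 CPM in HSC-KO mice, and the part of macrophage RNA in its fall in livers was not tested. The Oat call was kept only without HSC-KO liver 2 or 3 (adjusted p 0.0510 to 0.0780 without any other) and that of Cyp1a2 only without an HSC-KO liver (0.0502 to 0.0832 without a control). Of 12 periportal genes, which mark hepatocytes at the other end of the lobule, 1 was called higher (1.03% of all genes), Cdh1 (E-cadherin) at 47.9 ± 3.55 against 137 ± 49.0 CPM (adjusted p = 0.0207 by edgeR), and the median was 0.86. At an unadjusted p under 0.05 there were 7 (12.9% of all genes), and DESeq2 called 4 (4.02%). The Cdh1 call was lost on leaving out any control liver (adjusted p 0.0772 to 0.101).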

How the data were processed

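Whole liver, sorted ECs and sorted macrophages were measured by RNA-seq. The deposited values are raw counts, which the authors made with HISAT2 alignments to mm10 (GRCm38) summarised by featureCounts. Versions, annotation release, strand setting and multimapper handling are not given in the sources used here. The genes and lists were chosen with earlier results of these data known. Of the genes named with values, all 10 targets, Wnt2, Wnt9b, Rspo3, Glul, Oat, Cyp2e1 and Cyp1a2 were fixed, plus the 2 called genes of each list with the largest change in livers.

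With R 4.3.3, low genes were dropped by edgeR 4.0.16 (its filterByExpr rule with a count of 10 and a sum of 15), and the rest were scaled by TMM and tested with edgeR's quasi-likelihood test (limma 3.58.1) over the libraries compared, with no covariate. A gene was called at a Benjamini-Hochberg adjusted p below 0.05 over all genes tested and a log2 fold change beyond 1. The SE is the fold change divided by the square root of F. CPM are TMM-scaled within a table; 237 duplicated symbols were kept apart within a table and summed across tables. FPKM used union exon lengths of GENCODE vM21. A group with at most 3 counts in every library gave a bound, which covers counting error only. Groups came from the labels, the tests were checked on simulated data, and DESeq2 1.42.0, other scalings, filters and left-out libraries were alternatives. Figures were drawn with matplotlib in Python 3.11.15.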

Additional observations from a re-analysis of the deposited data

Results flagged for a closer look

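The response of 4 genes to the HSC-KO differed between whole liver and sorted ECs by the interaction test of edgeR (6.48% of 18991 genes were called), given as the liver minus the EC log2 fold change. Mouse age, RNA isolation and sorting differed between livers and ECs as well, and cannot be told apart from cell source. The difference was -2.78 for Axin2, which was lower in all HSC-KO livers and overlapped in ECs, and -5.96 for Tbx3, which was lower in all HSC-KO livers and higher in all HSC-KO ECs. It was 2.20 for Nkd1, which was called lower in ECs and not in livers. It was 5.34 for Rnf43, a fitted value that rests on HSC-KO ECs without a read and is no bound. On leaving out 1 of the 12 libraries the Axin2 call was lost in 9 cases (-2.99 to -2.41), that of Nkd1 in 8 (2.05 to 2.32), that of Rnf43 in 2 (5.33 to 5.35) and that of Tbx3 in 0. Tbx3 was at trace level in ECs, with 4, 5 and 11 reads in control and 26, 51 and 90 in HSC-KO libraries. Its call in ECs alone was lost in 5 of 6 left-out fits.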

How the results depend on the processing

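Across 16 alternatives each, the liver falls of Lgr5, Tbx3 and Lect2 kept direction and call, and those of Axin2, Rnf43, Notum, Sp5 and Cldn2 kept direction. Genes called in livers numbered 425 (8 of the 10 targets). They were 814 with DESeq2 (8 targets), 142 with glmTreat (4), 705 scaled by hepatocyte markers (8), and 5 targets were called with Xist as a covariate. Leaving out a library gave 188 to 451 genes and 4 to 6 targets. In ECs glmTreat gave 1096 genes and 1 target (from 2198 and 3), and leaving out a library 1 to 3 targets. In macrophages of HSC-KO mice glmTreat gave 906 and no fold minimum 3129 genes (from 1904); Tbx3, the called target, was left untested by a total count of at least 60 (0 called), and leaving out a library gave 0 to 1 targets. In Smad4FF cKO macrophages glmTreat gave 315 genes (from 951) and leaving out a library 566 to 909. For the liver and EC interaction DESeq2 gave 2008 genes (from 1231), and leaving out a library 1 to 5 targets (from 4). Library size alone lowered the median gene in livers by 0.12 and hepatocyte scaling by 0.40 log2 units. The cause of these moves was not tested.

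Directions reversed only for values that were not called. Axin2 in ECs was -0.00 and became 0.30 with library size alone and 0.0128 with DESeq2 and 0.0102 with its size factors, and -0.36 to 0.35 with a library left out. Cldn2 in ECs ranged from -2.47 to 0.76 with a library left out, and in Smad4FF cKO macrophages from -0.33 to 1.22, where Rnf43 ranged from -0.62 to 0.0609. The interaction of Cldn2 was 0.10 with DESeq2 and -1.90 to 1.24, and that of Notum -0.0489 to 5.66, with a library left out. Nkd1 in livers became 0.26 when the highest endothelial marker set the EC share.

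Replicate numbers were shared between groups but did not pair the libraries, since same-numbered libraries correlated over 0.1 in only some pairs (r from -0.18 to 0.22 across genes), and in no comparison did every library correlate best with its own number. With a replicate block the livers gave 271 genes and 5 targets, HSC-KO macrophages gave 0 targets, Axin2 and Cldn2 in ECs reversed to 0.0823 and 0.0220, and no other count moved by more than 1.5 times. Groups of 3 and the trace counts of Tbx3, Rnf43, Notum and Cldn2 outside liver limit what could be called there.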
